A study of Mus musculus with 12 samples.

Results

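The genes described here are the 104 whose transcripts stood above saline in every library of both elastase weeks. They are 104 of the 7897 rows of the count table with a mean of at least 10 CPM, or 1.32%, and of 34755 rows in all. CPM is 1000000 times the count of a row over the total of its library, taken without NR_046233, the row of the ribosomal RNA precursor. A member met 3 limits: a mean of at least 10 CPM over the 12 libraries, a level in each of the 8 elastase libraries above each of the 4 saline libraries, and a mean at each elastase week of at least 1.5 times the saline mean. The members were chosen by these CPM values, so their distance from saline is described here and not tested. The 2 comparisons with saline also share its 4 libraries and are not independent. The RNA came from aortas of male C57BL/6J mice aged 10 weeks whose infrarenal aorta had been infused with porcine pancreatic elastase (PPE) and that were harvested at day 7 (PPE week 1, 4 libraries) or day 14 (PPE week 2, 4 libraries), or infused with saline and harvested at day 7 (4 libraries). The saline group analysed here was taken at day 7 alone, so that at PPE week 2 the time after surgery differs from saline as well as the enzyme. Per-library values below run from replicate 1 to replicate 4.

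Elastase infused into the aortic lumen digests the elastic fibres of the wall, after which the segment dilates and leukocytes enter the wall, and this is a common mouse model of abdominal aortic aneurysm. The wall itself is made of endothelium on a basement membrane, smooth muscle between elastic layers, and an outer adventitia of fibroblasts with fat and nerves around it. MHC class I molecules, which present peptides to CD8 T cells, are made by nearly all cells and induced by interferon, while Laptm5, a lysosomal protein, and Arhgap45, a regulator of small GTPases, mark blood cells. Agrin and nidogens belong to basement membranes.

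The libraries differed in ways that touch these genes. Total counts lay between 8343313 and 12269131 per library, and between 4835305 and 9169690 without NR_046233. The row of NR_046233 took 30.4% ± 6.34 of the counts at PPE week 1 and 20.4% ± 1.13 at PPE week 2, against 41.3% ± 6.48 in saline (SD, n = 4 each). Smooth muscle contractile genes, the defining markers of the labelled tissue, were present in every library, with a summed level of 6187, 5549, 7363 and 9696 CPM in PPE week 1 libraries and 18376, 18850.0, 30080.4 and 14869 CPM in those of PPE week 2, against 19305, 19762, 18889 and 24822 CPM in those of saline. Inside PPE week 2 the libraries were unlike one another. The summed CPM of 35 macrophage and monocyte genes was 8405, 11058, 9102 and 9167 CPM in PPE week 1 libraries and 3170.3, 6323, 2695 and 6825 CPM in those of PPE week 2, against 4696, 5223, 4575 and 4596 CPM in those of saline. That of 32 T and NK cell genes was 631, 731, 615 and 605 CPM in PPE week 1 libraries and 127, 656, 116 and 637 CPM in those of PPE week 2, against 208, 137, 161 and 184 CPM in those of saline. PPE week 2 replicates 2 and 4 thus stood above every saline library in both lists, and replicates 1 and 3 below every one. Itgam, Clec7a and Lilrb4a of the macrophage list and Klrb1c of the T and NK cell list were at 0 in all 12 libraries. Adipocyte genes summed to 5733, 5991, 8019 and 4578 CPM in PPE week 1 libraries and 50716, 3114, 21037 and 20109 CPM in those of PPE week 2, against 21487, 12247, 10077 and 20354 CPM in those of saline. In whole tissue, fewer cells of a type and less RNA per cell cannot be told apart.

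Most members had moderate counts and a moderate distance from saline. CPM is not divided by transcript length, so it does not order genes by abundance. Their mean over the 8 elastase libraries ran from 11.9 to 1360.2 CPM with a median of 44.4, and 25 exceeded 100 CPM while 55 lay below 50. The lowest count of any member in any elastase library was 49. The median ratio to the saline mean was 1.92 at PPE week 1 and 2.02 at PPE week 2, where the median of all 7897 rows was 1.01 and 1.04. The smaller of a member's 2 ratios had a median of 1.83 and a maximum of 8.74, and reached 2 in 40 members and 3 in 9. The ratio was larger at PPE week 1 in 44 members and larger at PPE week 2 in 60. The gap between the lowest elastase library and the highest saline library was narrow: its median was a factor of 1.12, it was below 1.1 in 42 members, and the narrowest was that of Hspbp1, a factor of 1.00011. Summed over the 104 members, the level was 11347, 12360.4, 10485 and 11145 CPM at PPE week 1 and 8857, 12393, 7822 and 12834 CPM at PPE week 2, against 5418, 5129.6, 5245 and 4781 CPM in saline.

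Near the limits the choice was fine. Just inside the 1.5-fold limit were Tmem14c, Atg2a and Agrn, with smaller ratios of 1.504, 1.505 and 1.507, and just outside it Mast3, Isyna1 and 2510039O18Rik, with 1.4996, 1.498 and 1.496. The members nearest to the level limit were Cdk20, Slc35f1 and Rnf135, at mean levels of 10.1, 10.4 and 10.4 CPM, and the nearest rows left out were Hdhd5, Map3k9 and Nabp1, at 9.79, 8.96 and 8.87 CPM. Without the ratio limit 169 rows, or 2.14% of the 7897, had every elastase library above every saline library, and 152 had every elastase library below. The same rule turned round chose 50 rows that were lower at both weeks.

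**Figure D1:**
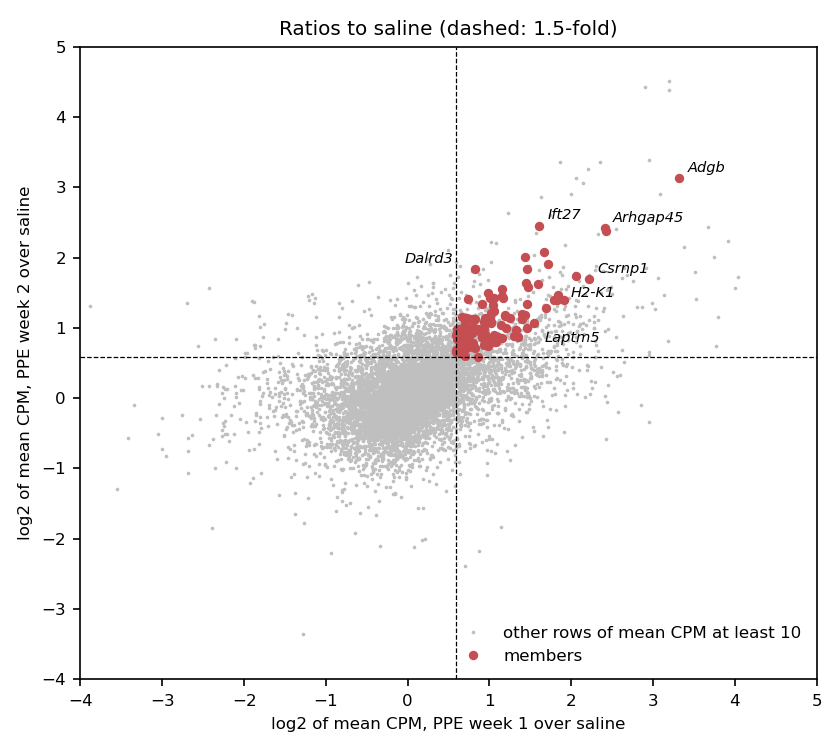
Log2 ratio of mean CPM at PPE week 1 over saline (horizontal axis) and at PPE week 2 over saline (vertical axis) for 7897 rows, with the 104 members in red, the other rows in grey and dashed lines at 1.5-fold; 3 rows lie outside the axes. Members fill the upper right, and grey points there failed because their libraries overlapped saline. Both axes share the same saline libraries.

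The members of highest CPM were Laptm5 and H2-K1, genes of blood cells and of antigen presentation, while other members of this kind had lower CPM. Laptm5, a lysosomal membrane protein of blood cells, had 1664, 1664, 1373 and 1617 CPM at PPE week 1 and 678, 1501, 667 and 1719 CPM at PPE week 2, against 529.8, 494, 651 and 495 CPM in saline (NM_010686, chromosome 4, 130912890 to 130936148; mm10 here and below). All 8 elastase libraries were higher, but at PPE week 2 replicates 1 and 3 cleared the highest saline library by little. H2-K1, a classical MHC class I heavy chain, had 1523, 1863, 1315 and 1317 CPM at PPE week 1 and 672, 1588, 629.7 and 1771 CPM at PPE week 2, against 535, 432, 364 and 355 CPM in saline (NM_001001892, chromosome 17, 33996012 to 34000619). Its group means were 3.57 and 2.76 times the saline mean at PPE week 1 and PPE week 2. H2-Q5, a class I locus that the table lists under a noncoding accession, had 32.9, 51.7, 30.1 and 32.4 CPM at PPE week 1 and 24.9, 50.8, 9.24 and 58.1 CPM at PPE week 2, against 6.41, 7.86, 5.14 and 8.08 CPM in saline. Reads of such near-identical class I genes can be split between copies, so the level of H2-Q5 is uncertain. Arhgap45, a GTPase-activating protein of blood cells, had 25.6, 24.8, 20.3 and 21.6 CPM at PPE week 1 and 9.08, 29.3, 10.8 and 43.6 CPM at PPE week 2, against 5.51, 5.17, 4.22 and 2.44 CPM in saline, which is 5.32 and 5.35 times the saline mean. The PPE week 2 libraries spread the widest. Stk10, a kinase of lymphocytes that acts on the cell cortex, had 175, 147, 168 and 166 CPM at PPE week 1 and 111, 214, 89.6 and 174 CPM at PPE week 2, against 78.3, 79.8, 89.5 and 85.5 CPM in saline. Uba7, which activates the interferon-induced modifier ISG15, had 209.9, 238, 199 and 157 CPM at PPE week 1 and 88.1, 260.0, 86.9 and 171 CPM at PPE week 2, against 67.02, 72.2, 48.6 and 61.1 CPM in saline (NM_023738, chromosome 9, 107975567 to 107984056). In all 6, PPE week 2 replicates 1 and 3 lay below replicates 2 and 4 and below every PPE week 1 library. Stk10 in PPE week 2 replicate 3 was at the level of the highest saline library, and Arhgap45 in PPE week 2 replicate 4 exceeded every PPE week 1 library. The marker lists above moved in the same libraries, and their part in these levels was not tested.

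Of the lists around these genes few other genes were members. MHC class I and peptide loading had 2 members (H2-K1 and H2-Q5) among 14 genes of at least 10 CPM, with a median ratio to saline of 2.82 at PPE week 1 and 2.11 at PPE week 2. Leukocyte signalling and adhesion had 3 (Laptm5, Arhgap45 and Stk10) among 70, with a median of 2.82 at PPE week 1 and 1.42 at PPE week 2. Proteasome and ubiquitin, the list that holds Uba7, had 1 member among 21, with a median of 1.17 at PPE week 1 and 1.14 at PPE week 2. There was no member among 25 macrophage and monocyte genes, 15 T and NK cell genes, 51 interferon-stimulated genes and 40 rows of chemokines, cytokines and their receptors. Their median ratios were high at PPE week 1, at 2.76, 4.55, 3.54 and 2.78 in that order, yet in none of those rows did all 8 elastase libraries exceed all saline libraries. Further members with immune roles were Nbeal2, needed for platelet granules, at 132 ± 12.3 CPM at PPE week 1 and 121 ± 63.4 CPM at PPE week 2, against 47.9 ± 11.8 CPM in saline (SD, n = 4 each), Sharpin of the linear ubiquitin ligase complex (1.63 and 1.51 times saline), Nkiras2, a Ras-like regulator of NF-kB (2.28 and 2.28), and Rnf135, a ubiquitin ligase of antiviral signalling in human cells (2.23 and 1.82). Zmynd15 (3.03 and 3.08) shares 12.9% of its exon bases with the chemokine gene Cxcl16 on the opposite strand, and since the kit does not mark strand the 2 cannot be told apart there. Gm21188 (3.53 and 2.63) and the noncoding Gm4759 (4.16 and 3.33) were also members. They and Zmynd15 stood in none of the gene lists, and an immune role is not claimed for them.

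The start regions of 2 of these genes are given as examples and do not stand for the members as a whole. Below are RefSeq windows of 300 bases (GRCm38.p6, each on the strand of its gene, 250 bases before to 50 after the start), with matches to the motifs searched in capitals: for H2-K1 at chr17:34000298-34000597 (minus strand), CCAAT boxes and a TATA box, and for Uba7 at chr9:107975317-107975616 (plus strand), an AP-1 element. RefSeq starts may differ from the ends of the rows in the count table. In the H2-K1 window the TATA box begins 35 bases after the listed start. A CCAAT box begins 8 bases after it and the other 16 bases before it.
H2-K1: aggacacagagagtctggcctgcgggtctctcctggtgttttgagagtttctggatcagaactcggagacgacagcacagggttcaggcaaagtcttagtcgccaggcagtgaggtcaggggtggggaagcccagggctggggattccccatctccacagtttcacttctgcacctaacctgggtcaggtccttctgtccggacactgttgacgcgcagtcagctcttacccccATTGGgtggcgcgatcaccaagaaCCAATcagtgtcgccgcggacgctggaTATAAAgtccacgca
Uba7: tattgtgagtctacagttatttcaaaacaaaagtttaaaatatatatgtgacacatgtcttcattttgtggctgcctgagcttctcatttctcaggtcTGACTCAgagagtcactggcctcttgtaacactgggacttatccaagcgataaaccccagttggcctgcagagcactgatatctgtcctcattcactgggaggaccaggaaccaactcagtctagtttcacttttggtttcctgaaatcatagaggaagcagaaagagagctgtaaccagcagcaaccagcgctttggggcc
The H2-K1 window had a GC content of 57.7% and the Uba7 window 44.7%, and neither held an SP1 box. Both windows hold the stretch agtttcactt, which none of the patterns searched marks. Its share over other windows was not taken, so no meaning is claimed for it. A match is a description of letters in the window and not of binding.

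**Figure D2:**
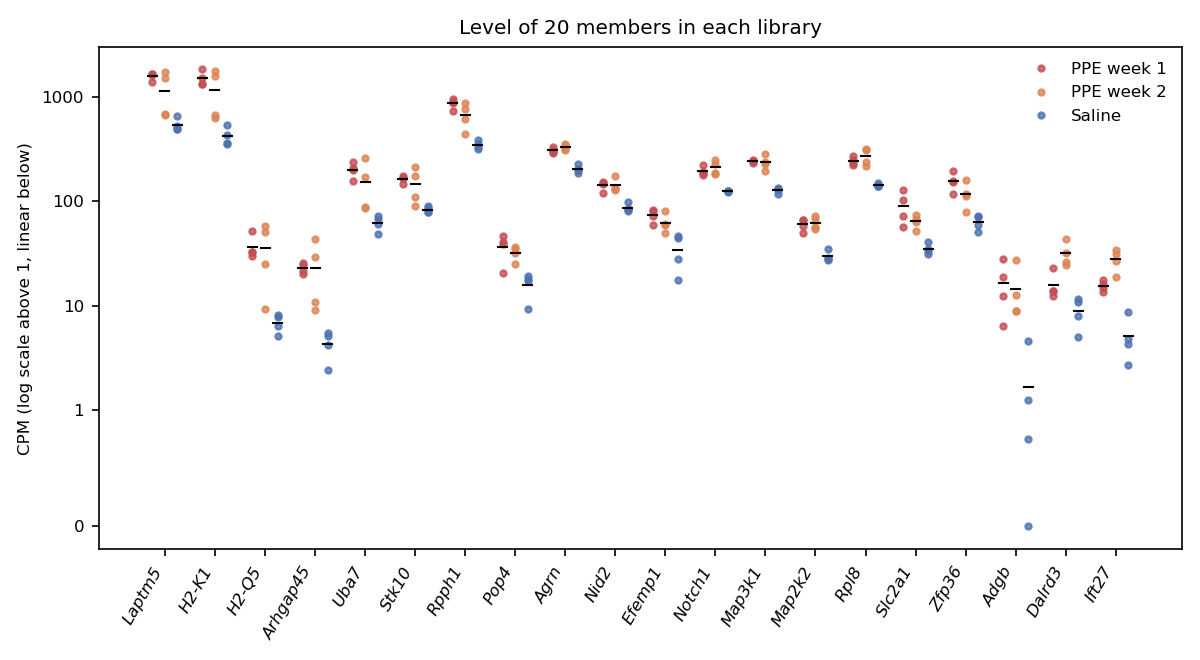
Level in CPM (log scale above 1, linear from 0 to 1) of 20 members in the 4 libraries of each group; points are libraries and black bars group means, with PPE week 1 left, PPE week 2 in the middle and saline right for each gene. Laptm5, H2-K1, H2-Q5 and Arhgap45 split widely at PPE week 2, while Agrn and Map3k1 sit close together in each group.

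Members of the matrix were few. Agrn, which encodes the basement membrane proteoglycan agrin, had 334, 296, 288 and 312 CPM at PPE week 1 and 314, 353, 308 and 343 CPM at PPE week 2, against 228, 205, 187 and 198 CPM in saline (NM_021604, chromosome 4, 156165290 to 156197533). All 8 elastase libraries lay within 288.3 to 353 CPM, and at PPE week 2 replicates 1 and 3 were lower than replicates 2 and 4 by little. Nid2, the basement membrane linker nidogen 2, had 148, 147, 121 and 154 CPM at PPE week 1 and 175, 132, 134 and 127 CPM at PPE week 2, against 83.7, 97.6, 84.8 and 80.1 CPM in saline. Efemp1, which encodes the elastic-fibre-associated protein fibulin 3, had 81.7, 72.99, 59.8 and 79.98 CPM at PPE week 1 and 59.8, 60.5, 49.3 and 80.9 CPM at PPE week 2, against 46.1, 44.5, 17.6 and 28.2 CPM in saline. The lists hold many more genes of this kind: Agrn and Nid2 were the only members among 26 basement membrane rows of at least 10 CPM (median ratio 0.923 at PPE week 1 and 1.18 at PPE week 2), and Efemp1 the only one among 20 elastic fibre rows (0.944 at PPE week 1 and 1.15 at PPE week 2). None of 30 fibrillar and other collagen rows, 45 matrix protease rows and 29 fibroblast rows was a member. Enzymes that build proteoglycan chains were also present. Xylt2, a xylosyltransferase that starts the chains, was at 48.7 ± 2.495 CPM at PPE week 1 and 59.5 ± 10.4 CPM at PPE week 2, against 23.7 ± 9.07 CPM in saline (SD, n = 4 each), and Extl3, a glycosyltransferase of heparan sulfate, at 204 ± 12.005 CPM at PPE week 1 and 203 ± 29.4 CPM at PPE week 2, against 130.2 ± 10.03 CPM in saline. Tpst2, which sulfates tyrosines of secreted proteins, had ratios of 2.64 and 2.28.

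The Agrn window (chr4:156197439-156197738, minus strand, RefSeq) is rich in GC, at 83.3%, and is shown with SP1 boxes in capitals, of which a single pair overlaps. RefSeq lists another Agrn start, whose window (chr4:156186210-156186509) has a GC content of 61.3% and 2 SP1 boxes.
Agrn: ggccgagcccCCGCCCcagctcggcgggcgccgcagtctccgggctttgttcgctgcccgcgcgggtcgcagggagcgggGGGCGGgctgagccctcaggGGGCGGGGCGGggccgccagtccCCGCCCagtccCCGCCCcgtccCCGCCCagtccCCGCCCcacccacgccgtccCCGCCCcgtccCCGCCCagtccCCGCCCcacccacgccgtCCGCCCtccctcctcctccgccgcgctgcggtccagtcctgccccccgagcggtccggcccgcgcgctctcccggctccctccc

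Signalling members included 2 kinases of MAP kinase cascades. Map3k1, a kinase that activates MAP2 kinases, had 244, 250.3, 241 and 234 CPM at PPE week 1 and 227, 236, 195 and 282 CPM at PPE week 2, against 132, 135, 129.5 and 119 CPM in saline (NM_011945, chromosome 13, 111746428 to 111818269). Map2k2, the kinase MEK2 that activates ERK, had 58.4, 66.3, 49.7 and 65.6 CPM at PPE week 1 and 56.7, 67.4, 53.96 and 72.2 CPM at PPE week 2, against 27.8, 34.7, 27.3 and 28.6 CPM in saline (NM_023138, chromosome 10, 81105913 to 81124697). In both, the 2 weeks overlapped each other. They were the only members of 15 genes in a list of MAP2 kinases and upstream kinases, added after the values were seen. The median ratio of the 15 was 1.28 at PPE week 1 and 1.202 at PPE week 2. Map2k4 and Map2k7 of that list were at 0 in every library. Notch1, the receptor that endothelium and smooth muscle use for contact signalling, had 179, 222, 188 and 192 CPM at PPE week 1 and 230.0, 181, 185 and 249 CPM at PPE week 2, against 122, 125, 124 and 126 CPM in saline and was the only member among 35 endothelial genes (median ratio 0.983 at PPE week 1 and 1.06 at PPE week 2). Gnb2, a G-protein beta subunit, had ratios of 1.67 and 1.65. Receptors coupled to such proteins were the adenosine receptor Adora2a, at 18.1 ± 3.39 CPM at PPE week 1 and 20.8 ± 7.49 CPM at PPE week 2, against 5.53 ± 2.26 CPM in saline (SD, n = 4 each), and the prostaglandin E receptor Ptger1 (1.97 and 2.81), of whose exon bases 66.3% lie opposite another gene, so that its counts are uncertain. Ptk7, a receptor of planar cell polarity, had 2.76 and 2.005. The levels of Cic, Mroh1, Arhgap45 and Tnrc18 are those of 1 accession of several listed for the gene. Further members were Sipa1l3 (1.62 and 2.07), Plekho1 (1.92 and 1.89), Frmd8 (1.77 and 2.18), Stk11ip (2.03 and 2.31), Sh3tc1 (2.004 and 2.18) and Ncdn (1.59 and 2.22). The cytoskeleton was represented by the formin Fhod1 (1.91 and 1.99).

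RNA handling and translation gave the member with the third highest CPM. Rpph1 is the RNA subunit of ribonuclease P, which trims the 5′ end of transfer RNA precursors, and had 890.2, 876, 961 and 735 CPM at PPE week 1 and 766, 615, 445 and 879 CPM at PPE week 2, against 382, 330.3, 355 and 319.7 CPM in saline (NR_002142, chromosome 14, 50807447 to 50807771). Pop4, a protein subunit of the same enzyme, had 20.8, 40.4, 39.1 and 46.4 CPM at PPE week 1 and 24.9, 32.05, 34.8 and 36.2 CPM at PPE week 2, against 19.2, 17.4, 17.98 and 9.21 CPM in saline. These were 2 of 6 genes of ribonuclease P and MRP at 10 CPM or more, a list added after the values were seen, with a median ratio of 1.61 at PPE week 1 and 1.74 at PPE week 2. The exon of Rpph1 lies to 73.0% within Ccnb1ip1 on the same strand, so that reads of the 2 genes cannot be told apart there. Rpl8, a protein of the large ribosomal subunit, had 249.9, 270.4, 233 and 223 CPM at PPE week 1 and 219, 307, 237 and 317 CPM at PPE week 2, against 149.7, 139, 139.8 and 139 CPM in saline, and was the only member among 22 genes of the ribosomal list, whose median ratio was 1.18 at PPE week 1 and 0.858 at PPE week 2. Rpl29 of the same subunit, outside that list, was at 165 ± 6.52 CPM at PPE week 1 and 179 ± 27.3 CPM at PPE week 2, against 90.7 ± 12.3 CPM in saline (SD, n = 4 each). Ribosomal protein genes have many processed copies, and reads could be shared with them. Other members were the valyl tRNA synthetase Vars (1.76 and 1.64 times saline), the helicase Ddx54 (1.65 and 1.78), Pcif1, which methylates mRNA caps (1.65 and 1.77), Smg9 of nonsense-mediated decay (2.11 and 1.73), the RNA-binding protein Rbm38 (3.75 and 2.64) and Dalrd3, a partner in arginine tRNA methylation (1.77 and 3.57). Zfp36, tristetraprolin, which speeds the decay of cytokine mRNAs, had 153, 197, 117 and 157 CPM at PPE week 1 and 111, 118, 78.4 and 161 CPM at PPE week 2, against 50.5, 71.1, 72.1 and 59.4 CPM in saline. It was the only member of 17 immediate early genes, whose median ratio was 1.17 at PPE week 1 and 1.199 at PPE week 2.

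Chromatin and transcription regulators made up another group. Kdm6b, a demethylase of histone H3 lysine 27, was at 207 ± 33.5 CPM at PPE week 1 and 175 ± 29.03 CPM at PPE week 2, against 105 ± 21.2 CPM in saline (SD, n = 4 each). The linker histone H1f2 had 63.3, 72.03, 54.2 and 66.2 CPM at PPE week 1 and 60.05, 97.6, 47.2 and 137 CPM at PPE week 2, against 25.1, 30.6, 45.5 and 25.7 CPM in saline. H2bc8, a histone H2B, had 72.4, 75.7, 62.1 and 57.02 CPM at PPE week 1 and 34.8, 76.2, 28.8 and 63.3 CPM at PPE week 2, against 15.4, 12.4, 23.1 and 26.3 CPM in saline, and near-identical histone genes make its level uncertain. In both histone genes PPE week 2 replicates 1 and 3 were lower than replicates 2 and 4. They were the only members among 34 replication-dependent and linker histone genes, a list added after the values were seen (median ratio 2.59 at PPE week 1 and 1.14 at PPE week 2). Csrnp1, a nuclear protein first described as induced by axin, had 36.1, 64.8, 32.1 and 42.5 CPM at PPE week 1 and 32.96, 31.2, 21.8 and 36.97 CPM at PPE week 2, against 10.9, 7.86, 9.72 and 9.396 CPM in saline, or 4.63 and 3.24 times the saline mean. Ratios at PPE week 1 and PPE week 2 were 1.59 and 1.86 for Srebf2, the master regulator of cholesterol synthesis, 1.67 and 1.73 for the fatty acid receptor Ppard and 1.68 and 1.89 for the repressor Cic. They were 2.23 and 2.93 for Lyl1, a blood and endothelial transcription factor, 1.598 and 1.796 for Hoxb4, 1.73 and 1.73 for Zbtb7b, 1.65 and 2.202 for Zfp319, 1.904 and 2.12 for the chromatin remodelling subunit Bicra and 2.08 and 1.87 for Tnrc18. Regulators of division were Rcc2 (1.87 and 1.82), Fzr1, an activator of the anaphase-promoting complex (2.38 and 2.21), and Cdk20 (1.66 and 1.98). None of 42 cell cycle and DNA replication genes was a member.

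Lipid, iron and sugar metabolism made up the next group. Pltp, the phospholipid transfer protein, had 395, 358, 312 and 341 CPM at PPE week 1 and 207, 409, 184 and 369 CPM at PPE week 2, against 142, 172, 125 and 96.6 CPM in saline, with 27.4% of its exon bases opposite the cathepsin A gene Ctsa. Like Laptm5 it was lower in PPE week 2 replicates 1 and 3. Tfrc, the transferrin receptor, was at 32.3 ± 7.05 CPM at PPE week 1 and 30.8 ± 4.14 CPM at PPE week 2, against 18.6 ± 6.17 CPM in saline (SD, n = 4 each). Pltp and Tfrc were the only members of 28 rows of the lysosome, lipid and iron list. Man2b2, a lysosomal mannosidase, had 206, 248, 204 and 216 CPM at PPE week 1 and 198, 289, 244 and 284 CPM at PPE week 2, against 116, 93.9, 164 and 127 CPM in saline. Slc2a1, the glucose transporter GLUT1, had 57.3, 129, 72.1 and 102 CPM at PPE week 1 and 62.7, 68.2, 52.1 and 74.2 CPM at PPE week 2, against 40.9, 31.2, 33.6 and 35.1 CPM in saline and was the only member of 11 glycolysis and hypoxia genes. Other lipid genes were Abca7 (2.28 and 2.25), the sterol hydroxylase Cyp27a1 (1.92 and 2.21), the mitochondrial cholesterol-binding protein Tspo (2.08 and 2.7003), the acyltransferase Lpcat4 (2.78 and 3.01), the glucosylceramidase Gba2 (1.51 and 1.98) and Abhd15 (1.797 and 1.98). Energy metabolism was represented by G6pc3 (1.61 and 1.87), the aspartate-glutamate carrier Slc25a12 (1.603 and 1.57), Flad1, which makes flavin cofactor (1.88 and 2.54), Uqcc3 of complex III assembly (2.76 and 3.57) and Bola2 (2.71 and 2.28).

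Membrane traffic was spread over many steps. Cope, a subunit of the COPI coat, was at 87.02 ± 9.73 CPM at PPE week 1 and 95.04 ± 25.8 CPM at PPE week 2, against 55.4 ± 5.195 CPM in saline (SD, n = 4 each). The other 8 genes of the coatomer list, added after the values were seen, were no members, and the median ratio of all 9 was 0.957 at PPE week 1 and 0.803 at PPE week 2. Ratios at the 2 weeks were 1.83 and 1.95 for the Golgi adaptor Gga1, 2.72 and 3.12 for the AP-5 adaptor subunit Ap5z1, 2.25 and 2.68 for Hps1 of lysosome-related organelles, 1.67 and 1.6998 for Wdr81 and 1.505 and 1.87 for Atg2a, a lipid transfer protein of autophagy. They were 1.75 and 1.66 for the receptor Lrp10, 1.51 and 1.57 for Tbc1d10b, 2.09 and 1.73 for the vault protein Mvp and 1.68 and 1.85 for the intramembrane protease Sppl2b. The palmitoylation pair of Zdhhc18, a transferase, and Abhd17c, a depalmitoylase, had 1.72 and 2.19 and 1.91 and 1.697. Transporter and channel genes were Mfsd12 (2.08 and 2.37), Tmem14c (1.81 and 1.504), Calhm2 (2.02 and 2.11) and Slc35f1 (3.18 and 4.21). Ptprn, a protein of dense-core vesicles in endocrine cells and neurons, had 17.1, 38.2, 14.7 and 27.99 CPM at PPE week 1 and 77.4, 31.5, 13.9 and 23.7 CPM at PPE week 2, against 8.07, 8.27, 11.4 and 8.46 CPM in saline, with PPE week 2 replicate 1 far above the rest. The remaining members were Rnf166 (1.51 and 1.796), Fbxw17 (2.21 and 2.06), Abtb1 (1.73 and 1.702), Hspbp1 (2.23 and 2.75), Armc5 (1.56 and 1.99), Nt5dc1 (1.64 and 1.98) and Mroh1 (1.63 and 2.18).

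The largest ratio belonged to a gene of low CPM. Adgb, androglobin, a globin-domain protein, had 6.36, 28.3, 12.5 and 18.96 CPM at PPE week 1 and 27.2, 8.89, 8.87 and 12.8 CPM at PPE week 2, against 4.61, 1.24, 0 and 0.752 CPM in saline (NM_001127353, chromosome 10, 10335703 to 10475093), which is 9.997 and 8.74 times the saline mean. Saline replicate 3 had no count, and the elastase libraries varied by more than 4-fold. Ift27, a small GTPase of intraflagellar transport in cilia, had 17.5, 13.6, 16.3 and 14.8 CPM at PPE week 1 and 18.99, 34.5, 26.7 and 31.6 CPM at PPE week 2, against 2.69, 4.76, 8.62 and 4.32 CPM in saline. Its smaller ratio was 3.05, and no library of one group overlapped those of another.

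Within PPE week 2 many members ordered the libraries alike. At PPE week 2, replicate 2 was the highest of the 4 libraries in 44 members and replicate 4 in 40, while replicate 3 was the lowest in 62. Over all 7897 rows replicate 2 was the highest in 29.1% and replicate 4 in 25.4%, and replicate 3 was the lowest in 28.7%. Both of replicates 2 and 4 exceeded both of replicates 1 and 3 in 63 of the 104 members, and in 30.3% of all rows; the reverse held in 6 members and in 18.7% of all rows. The median ratio of the members to the saline mean was 1.79, 2.25, 1.57 and 2.26 in PPE week 2 replicates 1 to 4, and 1.83, 2.09, 1.74 and 1.95 in PPE week 1 replicates 1 to 4. PPE week 2 replicate 3 was the lowest of the 8 elastase libraries in 40 members, a count for which the share over all rows was not taken. How many rows met the rule was sensitive to several libraries, and not to that library alone. Leaving out saline replicate 1 raised the number to 174, and leaving out PPE week 2 replicate 3 raised it to 171. It became 163 when saline replicate 2 was dropped, and 158 when PPE week 2 replicate 1 was dropped. With 1 library fewer the rule asks less, and the count was 106 to 146 without any of the other 8 libraries.

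**Figure D3:**
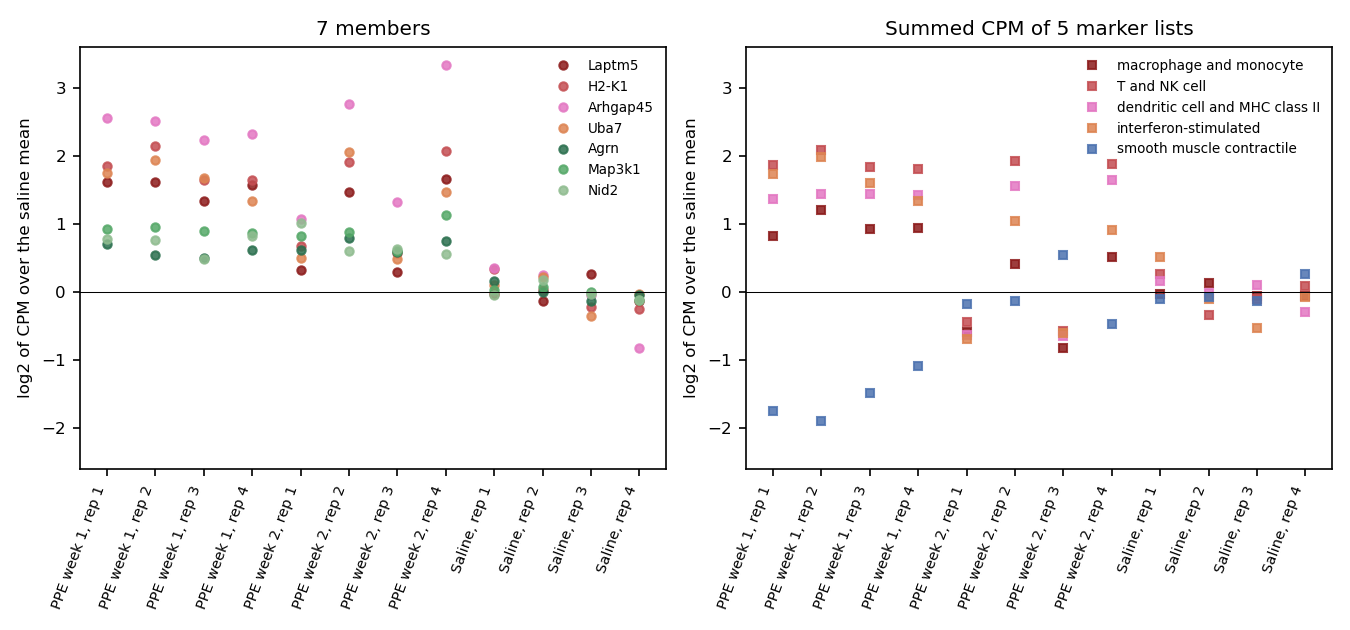
Log2 of CPM over the saline mean in each of the 12 libraries, for 7 members (left) and for the summed CPM of 5 marker lists (right); each point is 1 library. Laptm5, H2-K1, Arhgap45 and Uba7 are lower in PPE week 2 replicates 1 and 3 but stay above 0, where the 4 immune lists are below 0, and Agrn, Map3k1 and Nid2 vary less.

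The comparison of PPE week 2 with PPE week 1 was not used to choose the members and asks how the levels of the 2 elastase weeks differ; because the rule asked both weeks to be high, it favours genes that differ little between them. With edgeR's quasi-likelihood test and an adjusted p under 0.05, 0 of the 104 members were called higher, where 3.77% of 12756 rows were, and 0 were called lower, where 2.82% were. Without adjustment, 2 members had a p under 0.05 and a higher level and 3 a p under 0.05 and a lower one, against 1354 and 1259 of the 12756 rows. DESeq2 and limma-voom each called 1 member higher and 0 lower. The gene called by each was Dalrd3, which had 26.4, 43.6, 24.5 and 32.2 CPM at PPE week 2, against 12.5, 13.7, 13.7 and 22.96 CPM at PPE week 1. Its log2 fold change was 0.99 ± 0.33 (SE; edgeR adjusted p = 0.0884, and 0.0324 to 0.238 over the alternatives), and all 4 PPE week 2 libraries were higher than all 4 of PPE week 1. Part of the Dalrd3 transcript, 16.8% of its bases, lies opposite Wdr6. Ift27 was next, with 0.82 ± 0.36 (edgeR adjusted p = 0.196) and again no overlap between the weeks. Dalrd3 and Ift27 were the 2 members whose PPE week 2 libraries all lay above those of PPE week 1, a pattern found in 9.67% of the 7897 rows; in 0 members did they all lie below, against 10.3% of rows.

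Across the members the log2 fold change of PPE week 2 over PPE week 1 had a median of 0.03 (0.02 over all rows tested) and ran from -0.54 to 0.99, with 56 above and 48 below 0. The SE was 0.11 to 0.71 with a median of 0.27. An interval of 2 SE either side stayed within a 2-fold change in 83 members, so that for most of them a difference of 2-fold or more between the weeks was outside the interval. The share over all rows was not taken, and the rule favours genes that differ little between the weeks. After Dalrd3 and Ift27, high values were those of Ptprn (0.55 ± 0.43) and Ptger1 (0.49 ± 0.29). The lowest values were Csrnp1 (-0.54 ± 0.27), Rbm38 (-0.52 ± 0.37), Slc2a1 (-0.51 ± 0.22), Laptm5 (-0.50 ± 0.26) and Ptk7 (-0.49 ± 0.32), with edgeR adjusted p between 0.207 and 0.4903. Rpph1 (-0.38 ± 0.15, edgeR adjusted p = 0.155) was called lower without PPE week 2 replicate 4 (adjusted p = 0.0364, and 0.0243 to 0.363 over the alternatives), and Uba7 (-0.44 ± 0.29, edgeR adjusted p = 0.434) without PPE week 2 replicate 2 (adjusted p = 0.0377, and up to 0.713 over the alternatives). The most precise values were near 0: Agrn had 0.08 ± 0.11, Map3k1 -0.07 ± 0.12 and Extl3 -0.03 ± 0.13.

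Some genes of the lists used here changed between the weeks. Over all 12756 rows tested, 3.77% were called higher and 2.82% lower. In the MHC class I and peptide loading list 0 of 14 rose and 1 fell at PPE week 2 relative to PPE week 1 by edgeR, and the median log2 fold change was -0.44. In the leukocyte signalling and adhesion list 0 of 89 rose and 6 fell, with a median of -0.87, and in the macrophage and monocyte list, which holds no member, 0 of 26 rose and 6 fell, with a median of -1.18. In the basement membrane list 11 of 27 rose and 1 fell (median 0.47), in the ribosomal list 0 of 24 rose and 11 fell (median -0.51), and in the smooth muscle list, which holds no member, 17 of 24 rose and 0 fell (median 1.59). Of the replication-dependent and linker histones, a list added after the values were seen, 0 of 51 rose and 16 fell (median -1.24). In the lysosome, lipid and iron list 0 of 30 rose and 5 fell (median -0.31). None of the members of the lists that hold any (H2-K1, H2-Q5, Laptm5, Arhgap45, Stk10, Agrn, Nid2, Rpl8, H2bc8, H1f2, Pltp and Tfrc) was called. Whether a member differs from the rest of its list was not tested.

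**Figure D4:**
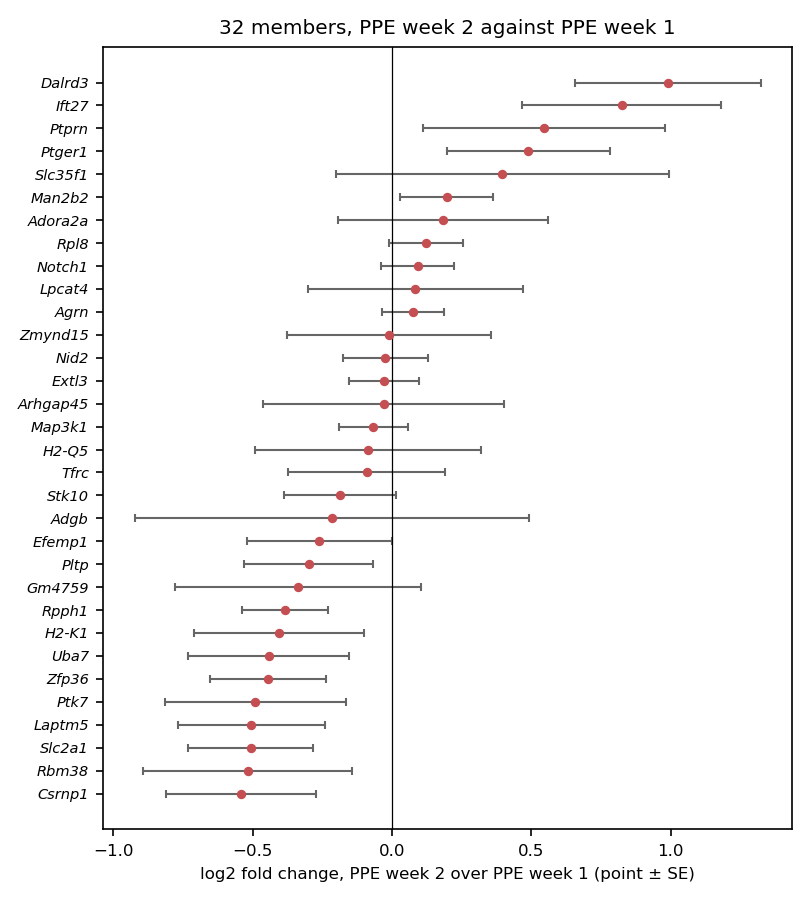
Log2 fold change of PPE week 2 over PPE week 1 (horizontal axis; points are edgeR estimates and bars 1 SE, 4 libraries per group) for 32 members, from the highest at the top to the lowest. Dalrd3 and Ift27 stand at the top, Csrnp1 and Rbm38 at the bottom, and none passed an adjusted p of 0.05.

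Beyond the rule, most members were alike in base composition. For 103 of them a GENCODE transcript was found. Its GC content had a median of 58.0%, against 49.9% for all rows of at least 10 CPM and 44.8% for the rows lowered by the mirrored rule. The 169 rows with every elastase library above every saline library, which include the members, also had a median of 58.0%. A high GC content was thus not particular to the members. Among the members GC content ran from 39.8% in Tfrc and 40.5% in Nt5dc1 to 62.6% in Lyl1 and 67.1% in Rpph1. Of the members, 52 lay among the 10% of rows with the highest GC content and 87, or 84.5%, among the highest 30%. Only 10 members had a GC content below 50%, among them Tfrc, Nt5dc1, Slc35f1, Efemp1, Adgb, Slc25a12, Map3k1, Cdk20 and Pop4. Transcript length did not stand out, with a median of 3195 bases against 3198 for all rows.

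The same tilt ran through the whole table. The 10% of rows with the highest GC content had a median ratio to saline of 1.198 at PPE week 1 and 1.47 at PPE week 2, and the 10% with the lowest had 0.919 and 0.924. Within a library, the mean log2(CPM + 1) of the highest 10% minus that of the lowest was -0.19, -0.29, -0.43 and -0.23 in PPE week 1 libraries and 0.07, -0.04, 0.04 and 0.01 in those of PPE week 2, against -0.71, -0.40, -0.62 and -0.76 in saline. The groups thus differed in GC tilt, with PPE week 2 apart from both others and 1 overlap between PPE week 1 (replicate 3) and saline (replicate 2). The share of NR_046233, given above, also differed between the groups. What set the tilt, and what part it has in the levels of the members beyond the correction below, was not tested.

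With each library's CPM corrected for its own trend over transcript GC content, an alternative chosen after the GC content of the members was seen, 38 rows met the rule and 32 of them were members. Among the 32, Gm4759 has no transcript here, was not corrected and could not lose its place. With Gm4759 at its uncorrected values, all 104 members still had both group means above saline, with a median smaller ratio of 1.52 and a lowest of 1.11, but in 64 at least 1 elastase library then overlapped saline. The rule had asked for ratios of at least 1.5 before correction, so means that stayed above saline are no test of the members. H2-K1 kept its place, at 3.04 and 2.204 times saline after correction at PPE week 1 and PPE week 2, and so did Uba7 (2.89 and 2.08), Arhgap45 (4.26 and 3.62), Map3k1 (1.83 and 1.86), Efemp1 (2.21 and 1.99), Slc2a1 (2.31 and 1.62) and Adgb (10.3 and 9.82). Also kept were Zfp36, Csrnp1, Tfrc, Pop4, Rpl29, H2bc8, Gm21188, Ift27, Adora2a, Uqcc3, Rbm38, Slc35f1, Rnf135, Ap5z1, Cyp27a1, Calhm2, Hps1, Stk11ip, Frmd8, Fbxw17, Nt5dc1, Slc25a12 and Abhd17c. Agrn had 1.202 and 1.11, Notch1 1.31 and 1.29, Rpl8 1.39 and 1.36 and Kdm6b 1.59 and 1.15, and these no longer met the rule. Laptm5 kept ratios of 2.48 and 1.71 but its libraries overlapped, and Rpph1 had 2.03 and 1.35. Of the 52 members among the highest 10% in GC content 5 still met the rule. Rows that met it only after correction were Tex9, Rgs2, Irf4, Rfc2, Nsmce3 and Fgl2.

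**Figure D5:**
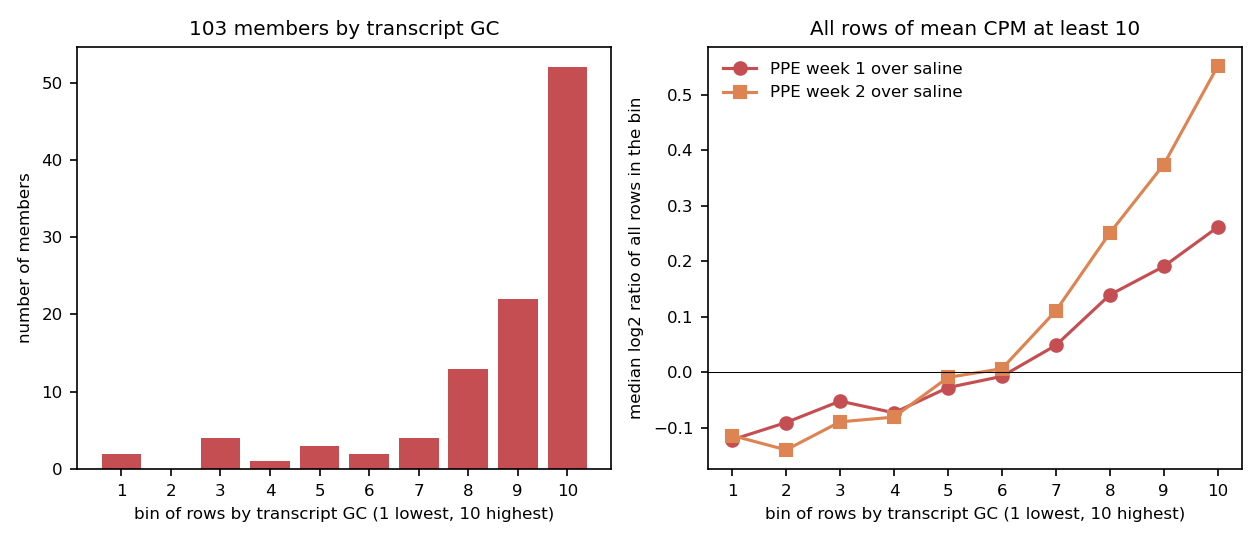
Left, the number of the 103 members with a transcript in each of 10 equal bins of the rows of at least 10 CPM, ordered by transcript GC content from bin 1 (lowest) to bin 10; right, the median log2 ratio of all rows in each bin, PPE week 1 and PPE week 2 each over saline. Bin 10 holds 52 members and has the highest median ratio in both comparisons.

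The promoters of the members were described by base composition and motif. RefSeq windows were matched for 84 of the 104 genes, 104 windows in all, with a median GC content of 60.7%, against 61.3% for windows of genes of at least 10 CPM and 52.7% for all windows. An SP1 box (GGGCGG, either strand) stood in 66.3% of the members' windows, against 64.5% for expressed genes and 35.7% for all. The CCAAT box (CCAAT) was found in 37.5, 37.7 and 37.4%, in the same order. An E-box (CACGTG) was in 12.5, 10.2 and 7.15%, a TATA box (TATAAA) in 7.69, 7.20 and 13.6%, and the AP-1 element (TGANTCA) in 7.69, 4.93 and 7.81%. The interferon response pattern (GAAANNGAA) stood in 3 of the 104 windows, 2.88%, against 7.70 and 8.56%. Only these exact letters were searched, so variant interferon elements are not in these shares, and a lack of such elements was not tested. For the STAT pattern (TTCNNNGAA) the shares were 4.81, 6.89 and 8.30%, for the PU.1-like GAGGAAGT 1.92, 3.33 and 3.20%, and for the NF-kB pattern (GGGANTTTC) 0.962, 1.06 and 1.11%. Several windows of 1 gene overlap, so windows are not independent.

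By position, members lay on 18 chromosomes. The share of rows of at least 10 CPM that were members was highest on chromosomes 10 (2.46%, 10 of 406) and 7 (2.30%, 13 of 564), and chromosome 11, with the most rows, held 12 of 641 (1.87%). Exon bases shared with another gene were found in 43 of 103 members, 41.7%, against 29.4% of all rows. They exceeded 50% of the transcript in Rpph1 and Ptger1, or 1.94% of the 103, against 2.12% of all rows. Of the others named above, 45.5% of Abhd15 lies opposite Trp53i13 and Gm10392, 29.8% of Mfsd12 opposite 4930404N11Rik and the neighbouring member Fzr1, and 27.6% of Bola2 opposite Slx1b. The kit does not mark strand, so reads of the 2 strands cannot be told apart there.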

How the data were processed

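Bulk RNA-seq libraries of mouse aorta (4 animals in each of the PPE week 1, PPE week 2 and saline groups) were made from total RNA with a kit that does not mark strand, per the labels' protocols. The authors deposited 1 table of whole-number counts per RefSeq accession for all 12 libraries, which is used here as deposited. The genome build was mm10, and bcl2fastq and DESeq2 were among the tools, per the submitters' processing notes; for the aligner and the counter a name is not given in the sources used here. Total counts were 8343313 to 12269131 per library, which limits precision for genes of low level. The labels do not tell how the animals were distributed over preparation days.

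CPM was taken over the total without NR_046233. PPE week 2 was compared with PPE week 1 with edgeR 4.0.16 (R 4.3.3; TMM scaling, filterByExpr, robust quasi-likelihood test, 1 mean per group, all 12 libraries, two-sided, Benjamini-Hochberg adjustment over 12756 rows), tested on simulated data beforehand; SE is the log2 fold change over the square root of F. DESeq2 1.42.0, limma-voom 3.58.1, other scalings, filters, left-out libraries and a replicate block were tried as alternatives. Transcript GC content and exon overlap were taken from GENCODE vM21 with Python 3.11.15 and bedtools 2.31.1. For the GC correction, each row's log2(CPM + 0.5) was taken less its mean over the 12 libraries. The median of these differences in each of 20 GC bins gave a trend per library. This trend, interpolated over GC content, was removed from each row's CPM. The correction was chosen after the data were seen. Gene names of all 104 members matched RefSeq (GRCm38.p6).

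The members and the gene lists were chosen with earlier results of these data known. Genes treated in full are the 10 members of highest CPM, the 10 of largest smaller ratio, the 5 highest and 5 lowest in PPE week 2 over PPE week 1, and members in a list, 33 in all; a few members, 1 of these among them, are counted but not reported here, and others were chosen after their values were seen. The authors' own tables of comparisons were not used.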

Additional observations from a re-analysis of the deposited data

Results flagged for a closer look

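In 96 groups of 4 libraries (32 members in 3 groups), 8 held a library that stood apart from the other 3 by more than the 95% limit of Dixon's test for 4 values, which chance alone exceeds in about 1 group in 20. Laptm5 was low in PPE week 1 replicate 3, at 1373 CPM against 1617 to 1664 CPM in the others. Rbm38 was low in PPE week 1 replicate 1, at 10.4 CPM against 19.4 to 20.99 CPM. At PPE week 1, high values were those of H2-Q5 in replicate 2 (51.7 CPM), Tfrc in replicate 2 (42.8 CPM) and Dalrd3 in replicate 4 (22.96 CPM). Nid2 was high in PPE week 2 replicate 1, at 175 CPM, the library in which Ptprn and Adgb also had their highest PPE week 2 value. Among saline libraries, Rpl8 was high in replicate 1 (149.7 CPM) and Ptprn in replicate 3 (11.4 CPM).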

How the results depend on the processing

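The number of rows meeting the rule was 104. It was 465 with NR_046233 kept in the total, because saline libraries, with the largest share of that row, then get a lower CPM in every other row, 40 with a ratio of at least 2, 169 with no limit on the ratio, and 38 after GC correction, which was chosen after seeing the data. TMM scaling gave 84, DESeq2 size factors 91, a limit of 5 CPM 119 and of 20 CPM 81, and counts summed per gene 102. Leaving out 1 library gave 106 to 174. For PPE week 2 against PPE week 1, DESeq2 and limma-voom called 1 member higher (Dalrd3), and 0 or 1 member was called lower without 1 library. After GC correction 1 was called lower, Rpph1 (adjusted p = 0.0243, and 0.0243 to 0.363 over the alternatives). Over all rows, DESeq2 called 812 higher and 651 lower, limma-voom 458 and 694, the 8 PPE libraries alone 337 and 184, and left-out libraries 207 to 642 and 112 to 607, against 481 and 360.

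The replicate numbers do not pair the libraries (correlations of same-numbered libraries -0.0881 to 0.0353). With the replicate block, 388 rows were called higher and 330 lower, with 0 members in either direction, and Lpcat4 was at -0.0460.

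Among the 33 members computed under the alternatives, 14 changed the sign of their log2 fold change of PPE week 2 over PPE week 1 in at least 1. With library totals in place of TMM, Arhgap45 was at 0.0102 and Zmynd15 at 0.0273; with the 8 PPE libraries alone, Zmynd15 was at 0.000716; with limma-voom, Lpcat4 was at -0.0390. After GC correction Agrn was at -0.131, Rpl8 -0.0625, Man2b2 -0.00608, Notch1 -0.0402, Adora2a -0.0213 and Lpcat4 -0.148. Without 1 library the ranges were -0.526 to 0.230 for Arhgap45, -0.501 to 0.222 for Zmynd15, -0.359 to 0.299 for Lpcat4, -0.137 to 0.0288 for Nid2, -0.713 to 0.183 for Adgb, -0.424 to 0.220 for H2-Q5, -0.158 to 0.0738 for Tfrc, -0.0991 to 0.0241 for Extl3, -0.125 to 0.844 for Ptprn and -0.0368 to 0.376 for Adora2a. The cause of these changes was not tested.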
